A study of Homo sapiens with 688 samples.

Results

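Albendazole is a benzimidazole anthelmintic drug, and BT20 is a cell line derived from a human breast carcinoma. The members were chosen by the drug label and comprise 14 of the 688 samples of the series: 12 wells profiled by PLATE-Seq and 2 pools of wells profiled by TruSeq, an Illumina protocol for conventional RNA-Seq. They come from a screen in a single 96-well plate in which 7 drugs and their vehicle, DMSO, were each applied to 12 wells. PLATE-Seq captures polyadenylated RNA in each well, adds a well barcode during reverse transcription and sequences the 3′ ends of the transcripts of all wells as 1 library. The other part of the material was combined in sets of 6 wells, which gave 2 TruSeq pools per condition, so that the pools and the wells hold the same cells and are not independent samples.

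Albendazole was given at 0.56 µM for 6 h and was compared with 12 DMSO wells and 2 DMSO pools kept for the same 6 h. Direct comparisons were also made with 2 µM aprepitant, which antagonizes the neurokinin receptor NK1, and with 0.194 µM gemcitabine, a nucleoside analogue, each with 12 wells and 2 pools treated for 6 h. The remaining drugs of the screen were mitoxantrone, crizotinib, idarubicin and bortezomib, each also with 12 wells and 2 pools treated for 6 h. Some genes were compared with these drugs too. All wells held the same cell line on the same plate, so that the p-values measure the spread between wells or pools of 1 culture experiment. By well number, each condition held the same place in every run of 8 wells. Drug and place in the run therefore cannot be told apart in any comparison of the wells or of the pools made from them.

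Albendazole binds β-tubulin and blocks its assembly into microtubules, the hollow polymers of α- and β-tubulin that carry intracellular transport and form the mitotic spindle. Cells sense unassembled tubulin and adjust its synthesis: when the pool of free dimers rises, ribosomes that translate tubulin are recognized by the factor TTC5 through the amino acids at the start of the nascent chain, and the tubulin mRNAs are degraded. Benzimidazoles are also known as inducers of the cytochrome P450 gene CYP1A1 through the aryl hydrocarbon receptor.

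The starts of the tubulin coding sequences that this recognition reads are shown here because the tubulin mRNAs carry the main result. The sequences are from the GRCh37 genome at the coding starts of the GENCODE annotation, and capitals mark the 12 bases that encode the recognized amino acids, or the same 12 positions in TUBG1, a γ-tubulin of the microtubule-organizing centre.
TUBB, chr6:30688284-30688313, + strand: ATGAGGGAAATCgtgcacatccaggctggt
TUBB4B, chr9:140135813-140135842, + strand: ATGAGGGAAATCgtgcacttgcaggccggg
TUBA4A, chr2:220116926-220118580, − strand, across 2 coding exons: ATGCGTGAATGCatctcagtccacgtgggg
TUBA1C, chr12:49658965-49663274, + strand, across 2 coding exons: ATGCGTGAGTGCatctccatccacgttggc
TUBA1B, chr12:49523479-49525083, − strand, across 2 coding exons: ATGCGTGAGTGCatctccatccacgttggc
TUBG1, chr17:40761756-40761785, + strand: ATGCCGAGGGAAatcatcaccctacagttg
Of 19856 annotated coding sequences, 10 encoded the β-tubulin start and 9 the α-tubulin start, and all of these were tubulin genes. TUBA1A, TUBA1B and TUBA1C have near-identical sequences, so that reads may be split among them unevenly. TUBA1B differed widely between the assays: it had between 418 and 494 CPM (counts scaled to a common library size) in the albendazole and DMSO pools but a median of 0.534 CPM in the albendazole wells, where only reads unique to a gene at the 3′ end were counted. The cause of this difference was not tested.

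The albendazole wells had 694888 to 1004082 counts each and the DMSO wells 367848 to 1071312, and 1 DMSO well lay under 0.5 times the median of the plate. The albendazole pools had 23037974 and 23751514 counts. The mean count was 848300 in albendazole wells, lower than the 1031652 of aprepitant and the 1004631 of gemcitabine wells (two-sided permutation test, adjusted p = 0.00064 for both), while the difference from the 886250 of DMSO wells did not pass the test (adjusted p = 0.591). The labels place both albendazole pools on lane L001 and both DMSO and both gemcitabine pools on lane L002, whereas aprepitant had 1 pool on each. The drug and the lane label therefore cannot be told apart within the TruSeq comparison with DMSO. Aprepitant was the only condition of the screen with pools on both lanes. Every result with the lane label as a term therefore rests on 1 aprepitant pool against the other, which estimates the lane poorly. The cell line was checked on its markers in the 4 albendazole and DMSO pools. KRT8 lay between 2420 and 2780 CPM, EGFR between 1170 and 1250 CPM and KRT5 between 827 and 951 CPM, while the basal keratin KRT17 lay between 1.75 and 2.64 CPM. PGR, KLK3, CD3E, COL1A2 and ALB were at 0 in all 4 pools.

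TUBB, the main β-tubulin gene of these cells (chr6:30685212-30693315), was lower in the albendazole pools than in the pools of all 7 other conditions. Its level was 1305 and 1223 CPM with albendazole and 1595 and 1618 CPM with DMSO. The aprepitant pools had 1613 and 1585 CPM and the gemcitabine pools 1613 and 1589 CPM. Among the 14 pools of the other conditions the lowest value was 1466 CPM, in idarubicin, so that the albendazole pools did not overlap with any other condition. TUBB fell by 21.3% against DMSO (log2 fold change −0.35, SE 0.039, adjusted p = 4.8e-06, edgeR), by 20.9% against aprepitant (adjusted p = 4.3e-06) and by 21.0% against gemcitabine (adjusted p = 3.9e-06). With the lane label as a term in the model the log2 fold change against DMSO was −0.37 (SE 0.066, adjusted p = 0.022). In bulk samples such as these, a lower share of expressing cells and less RNA per cell cannot be told apart.

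TUBA4A, an α-tubulin gene (chr2:220114432-220142624), had the largest fall of the tubulin genes that passed the test. It was at 137 and 126 CPM in the albendazole pools and at 174 and 181 CPM in the DMSO pools. Aprepitant pools had 180 and 167 CPM and gemcitabine pools 187 and 183 CPM, so that the albendazole pools lay below all 6 pools of these 3 conditions. TUBA4A fell by 26.0% against DMSO (log2 fold change −0.43, SE 0.050, adjusted p = 4.8e-06), by 24.5% against aprepitant (adjusted p = 1.7e-05) and by 29.0% against gemcitabine (adjusted p = 4.8e-07). With the lane label as a term it was −0.55 on the log2 scale (SE 0.082, adjusted p = 0.0020). Only crizotinib pools, at 127 and 126 CPM, had a similar level (log2 difference of albendazole from crizotinib 0.05, SE 0.052, adjusted p = 0.49).

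TUBA1C (chr12:49582519-49668383) and TUBA1B (chr12:49521565-49525180), 2 further α-tubulin genes, fell by smaller amounts. TUBA1C had 361 and 346 CPM with albendazole and 399 and 427 CPM with DMSO, and fell by 14.5% (log2 fold change −0.23, SE 0.040, adjusted p = 0.00071). TUBA1B had 432 and 418 CPM with albendazole and 472 and 494 CPM with DMSO, and fell by 12.0% (log2 fold change −0.18, SE 0.039, adjusted p = 0.0034). The albendazole pools did not overlap with the DMSO pools for either gene, which is a weak criterion with 2 pools in each group. Both also fell against aprepitant, by 15.7% for TUBA1C (adjusted p = 0.0022) and by 14.4% for TUBA1B (adjusted p = 0.0053). Against gemcitabine the falls were 16.2% (adjusted p = 0.0021) and 13.9% (adjusted p = 0.011). With the lane label as a term, TUBA1C was at −0.26 (SE 0.068, adjusted p = 0.71) and TUBA1B at −0.22 (SE 0.066, adjusted p = 0.93) on the log2 scale. Neither gene passed the test with this term. The size of the differences did not shrink, but the SE was larger than the 0.040 and 0.039 without the term.

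**Figure D1:**
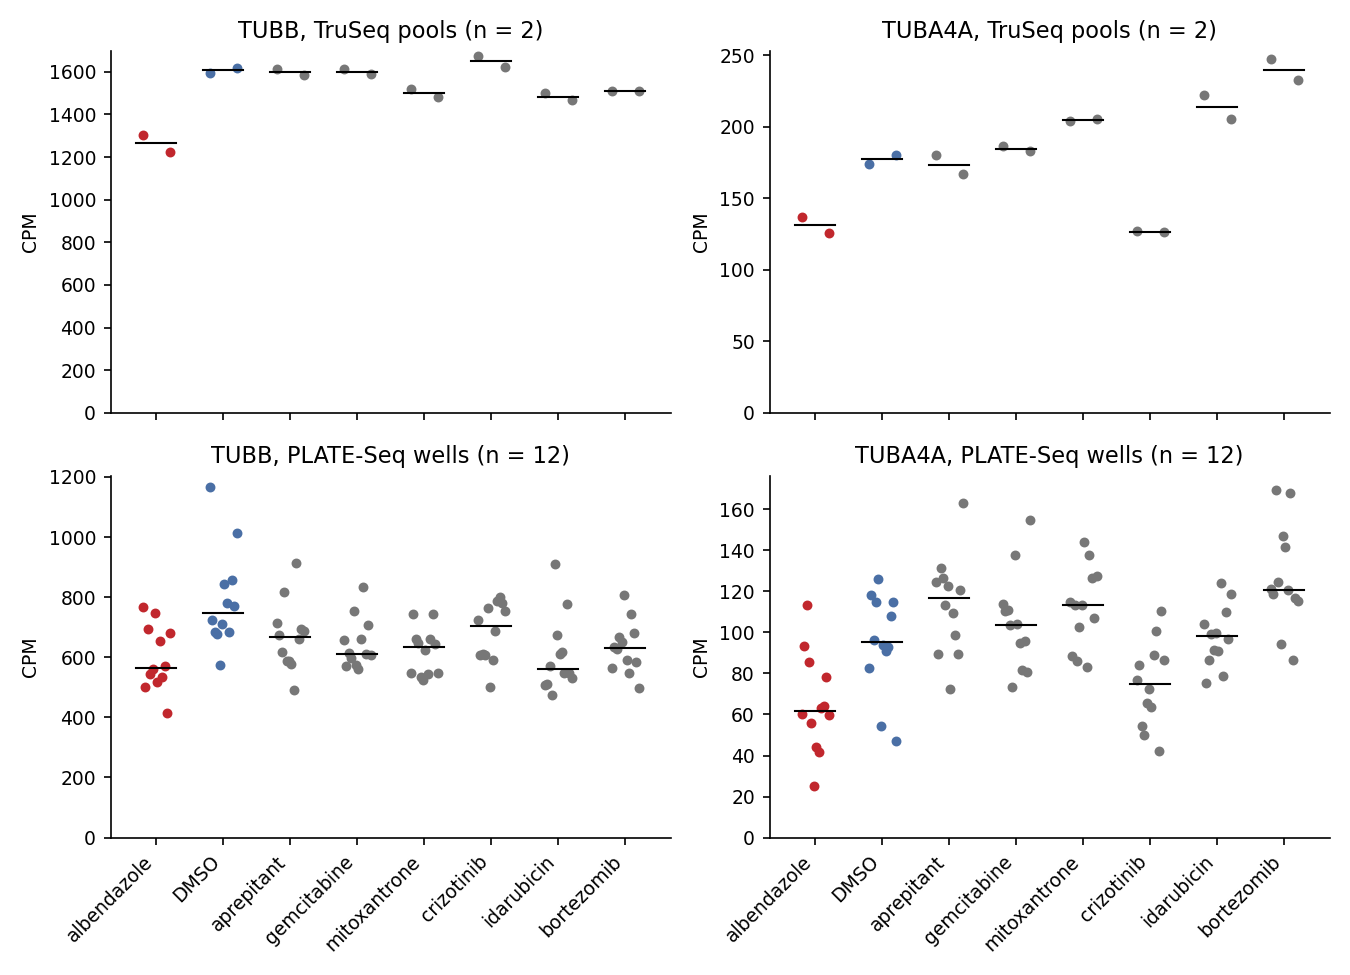
Levels of TUBB (left) and TUBA4A (right) in CPM, in the 2 TruSeq pools (top) and the 12 PLATE-Seq wells (bottom) of each condition, with albendazole in red and DMSO in blue. Each point is a pool or a well and the line is the mean of the pools or the median of the wells. The albendazole pools, at 1305 and 1223 CPM of TUBB, lie below all other pools, while the wells of the conditions overlap.

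Among the 18 α- and β-tubulin genes listed, 13 passed the filter on low counts in the TruSeq pools. Of these, 4 fell and 0 rose against DMSO, where 4.30% of all 14970 genes tested fell and 7.00% rose. Against aprepitant the same count of 4 fell, where 0.0267% of all genes tested fell, and against gemcitabine 4 fell, where again 0.0267% fell. In each of the comparisons with DMSO, aprepitant and gemcitabine the genes that fell were TUBB, TUBA4A, TUBA1C and TUBA1B. These comparisons share the albendazole pools and are not independent of each other. The median log2 fold change of the 13 genes was −0.094 against DMSO, −0.225 against aprepitant and −0.254 against gemcitabine. Over all genes the median was 0.0061, 0.00073 and 0.0028.

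Among the 8 α- and β-tubulin genes with a mean of at least 10 CPM, the log2 fold change lay between −0.405 and −0.128 against aprepitant. Against gemcitabine it lay between −0.495 and −0.155, and it was negative for 8 of 8 genes in both comparisons. Against DMSO it was negative for 7 of 8 and lay between −0.435 and 0.00972. The members that did not pass the test included TUBB4B, a β-tubulin gene with 584 and 532 CPM with albendazole and 568 and 633 CPM with DMSO (log2 fold change −0.11, SE 0.050, adjusted p = 0.17). The groups overlapped for this gene. With offsets for GC content and transcript length, an alternative added after the data were seen, 6 of the 13 genes fell: the 4 above, TUBB4B (−0.24, adjusted p = 6.4e-10) and TUBB6 (−0.19, adjusted p = 0.020). Over all genes 2.10% fell with these offsets. TUBA1A, at 24.6 and 22.2 CPM with albendazole and 23.1 and 24.0 CPM with DMSO, had a log2 fold change of −0.01 against DMSO but of −0.28 against gemcitabine (adjusted p = 0.10). TUBB3, the β-tubulin best known from neurons, likewise had 0.01 against DMSO and −0.29 against gemcitabine (adjusted p = 0.25). TUBB6 had −0.09 against DMSO and −0.20 against gemcitabine (adjusted p = 0.20).

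The γ-, δ- and ε-tubulin genes, which do not encode the α or β start, gave 0 of 4 genes called in any of these 3 comparisons by edgeR, and TUBG1 was at −0.03 against DMSO (SE 0.049, adjusted p = 0.77). At an unadjusted p under 0.05, 1 of the 4 differed against DMSO, 0 against aprepitant and 1 against gemcitabine, where 27.8%, 5.58% and 11.4% of all genes did. With the GC and length offsets 1 of the 4 fell against DMSO, TUBG1 (−0.13, adjusted p = 0.025), where 2.10% of all genes fell. The difference between these genes and the α- and β-tubulin genes was not tested. Of the 22 genes for tubulin folding, autoregulation and modification, 2 fell and 0 rose against DMSO, where 4.30% and 7.00% of all genes did. These were the chaperonin subunits TCP1 (log2 fold change −0.15, adjusted p = 0.037) and CCT4 (−0.13, adjusted p = 0.031), and neither passed the test against aprepitant (adjusted p = 0.91 and 0.92). Of 24 microtubule-associated protein genes 2 rose and 1 fell against DMSO, which is close to the 7.00% and 4.30% over all genes. MAP1S rose by 0.29 on the log2 scale (adjusted p = 0.027) and CAMSAP2, which binds microtubule minus ends, fell by 0.23 (adjusted p = 0.011). With the offsets 0 rose and 3 fell, where 1.58% and 2.10% of all genes did, and MAP1S was at −0.02 (adjusted p = 0.88).

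**Figure D2:**
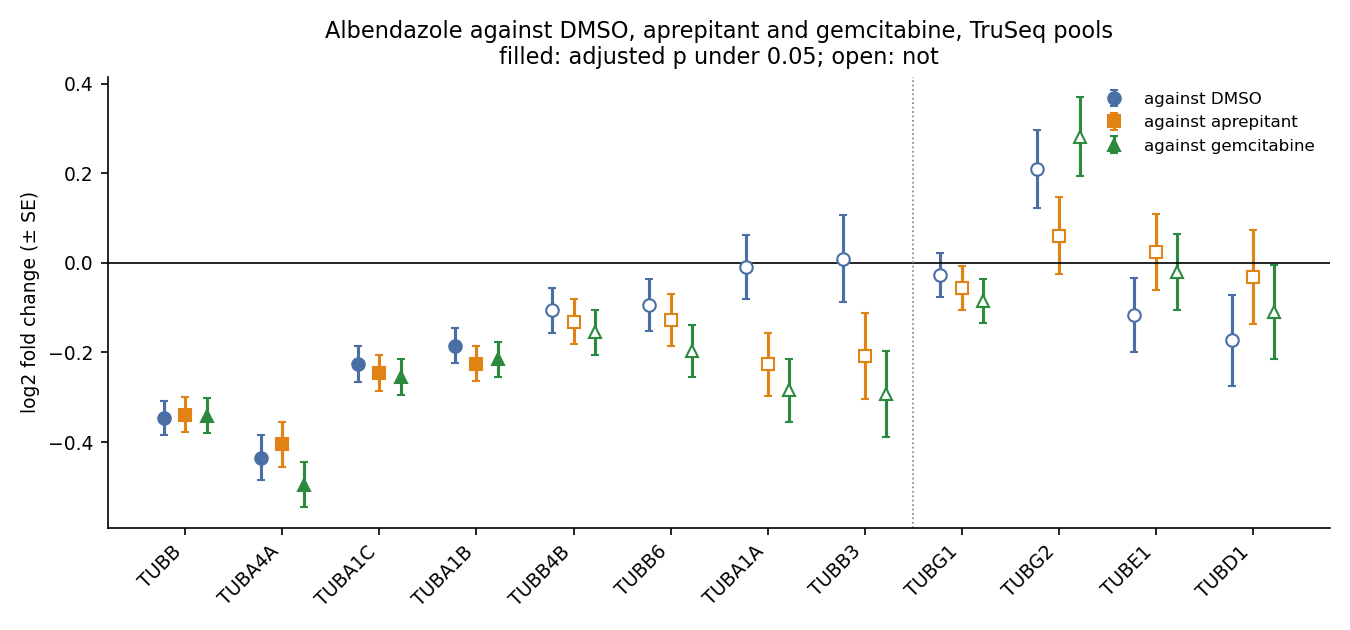
Log2 fold change of albendazole against DMSO (circles), aprepitant (squares) and gemcitabine (triangles) in the TruSeq pools, with bars for the SE of the fit, for the 8 α- and β-tubulin genes with at least 10 CPM and, right of the dotted line, for 4 γ-, δ- and ε-tubulin genes. Filled symbols passed an adjusted p of 0.05. TUBB, TUBA4A, TUBA1C and TUBA1B lie between −0.50 and −0.18 in each comparison.

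The tubulin comparison was extended to the other 4 drugs of the screen after the data were seen. In the TruSeq pools TUBB fell against each of them: by 0.25 against mitoxantrone, 0.38 against crizotinib, 0.23 against idarubicin and 0.25 against bortezomib on the log2 scale (adjusted p between 2.0e-09 and 2.5e-05). In the wells the differences were −0.04, −0.18, −0.01 and −0.06, and none of them passed the test (adjusted p between 0.34 and 0.99). TUBA4A fell by 0.64 against mitoxantrone, 0.71 against idarubicin and 0.87 against bortezomib. Mitoxantrone, crizotinib and idarubicin pools carry the lane label L001 of the albendazole pools. Among 13 tubulin genes, 6 were called lower against mitoxantrone, 5 against crizotinib, 7 against idarubicin and 10 against bortezomib, where 7.13%, 19.3%, 10.9% and 20.4% of all genes were called lower. Against crizotinib 2 tubulin genes were called higher, TUBB3 by 0.72 (adjusted p = 5.6e-06) and TUBB6 by 0.22 (adjusted p = 0.0045) on the log2 scale.

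In the PLATE-Seq wells the tubulin genes differed in the same direction with a wider spread. TUBB ranged from 413 to 766 CPM in the albendazole wells (median 565 CPM) and from 573 to 1167 CPM in the DMSO wells (median 748 CPM). Of the 12 albendazole wells, 11 were below the DMSO median and 7 below the lowest DMSO well. The log2 fold change was −0.40 (SE 0.094), and with an adjusted p of 0.060 it did not pass the test. It passed when the DMSO well of low depth was left out (−0.43, adjusted p = 0.020) and with a replicate block of runs of 8 wells (−0.39, adjusted p = 0.019). The DMSO wells had the highest median of TUBB of the 8 conditions, and against gemcitabine, whose wells ranged from 562 to 835 CPM with a median of 612 CPM, the log2 fold change was −0.10 (SE 0.083, adjusted p = 0.93). Against aprepitant it was −0.15 (SE 0.089, adjusted p = 0.998).

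TUBA4A had 25.2 to 114 CPM in the albendazole wells, with a median of 61.7 CPM. The DMSO wells had 47.0 to 126 CPM (median 95.1 CPM), the aprepitant wells 72.6 to 163 CPM (median 117 CPM) and the gemcitabine wells 73.4 to 155 CPM (median 104 CPM). All 12 albendazole wells were below the aprepitant median and 8 were below the lowest aprepitant well. TUBA4A was the only gene called against aprepitant in PLATE-Seq, 1 of 6105 tested or 0.0164% (log2 fold change −0.79, SE 0.16, adjusted p = 0.046), and it was not called with RLE normalization (adjusted p = 0.054) or with DESeq2 (adjusted p = 0.081). It lay at −0.53 against DMSO (SE 0.18, adjusted p = 0.60) and at −0.68 against gemcitabine (SE 0.16, adjusted p = 0.16), neither of which passed. Of the 6 α- and β-tubulin genes tested in PLATE-Seq, 6 of 6 had a negative log2 fold change against DMSO, with a median of −0.33 beside 0.0058 over all genes. None was called, and 3 of the 6, TUBB, TUBA4A and TUBB4B, were lower at an unadjusted p under 0.05, where 2.57% of all 5990 genes were.

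Against DMSO, 6 genes of 5990 tested were called in PLATE-Seq, or 0.100%, of which 5 rose (0.0835%) and 1 fell (0.0167%), and 323 genes or 5.39% had an unadjusted p under 0.05. The nuclear long non-coding RNA NEAT1, the scaffold of paraspeckles (chr11:65190245-65213011), ranged from 476 to 812 CPM in the albendazole wells (median 685 CPM) and from 367 to 620 CPM in the DMSO wells (median 465 CPM). All 12 albendazole wells were above the DMSO median and 7 above the highest DMSO well. NEAT1 rose by 0.48 on the log2 scale (SE 0.095, adjusted p = 0.0061). The TruSeq pools, at 136 and 131 CPM with albendazole and 124 and 118 CPM with DMSO, gave a log2 fold change of 0.15 (SE 0.055) that did not pass the test (adjusted p = 0.080). Against aprepitant and gemcitabine wells NEAT1 was at 0.32 (adjusted p = 0.72) and 0.25 (adjusted p = 0.62).

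STK24, which encodes a kinase of the STE20 family (chr13:99097439-99230194), was the gene that fell. It ranged from 35.6 to 69.8 CPM in the albendazole wells (median 46.6 CPM) and from 56.8 to 140 CPM in the DMSO wells (median 75.9 CPM). The 12 albendazole wells were all below the DMSO median, and 9 were below the lowest DMSO well. The log2 fold change was −0.76 in PLATE-Seq (SE 0.17, adjusted p = 0.041) and −0.05 in TruSeq (SE 0.048, adjusted p = 0.49), where the pools lay between 98.7 and 104 CPM. With the replicate block STK24 did not pass in PLATE-Seq (−0.74, adjusted p = 0.075), nor did it without the 6 most abundant symbols (adjusted p = 0.084). It was at −0.42 in PLATE-Seq against aprepitant (adjusted p = 0.96) and −0.24 against gemcitabine (adjusted p = 0.92), neither of which passed.

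The 4 other genes that rose in PLATE-Seq are listed under the symbols STRF6, OK/SW-cl.16, 1 and AF079515. No gene position was assigned to them here, and they are named as deposited. STRF6 ranged from 64810 to 93830 CPM in the albendazole wells and from 49330 to 63700 CPM in the DMSO wells, and the groups did not overlap (log2 fold change 0.39, SE 0.053, adjusted p = 1.3e-06). It was also the only gene called against gemcitabine wells, 1 of 6159 tested or 0.0162% (log2 fold change 0.27, adjusted p = 0.012). Against aprepitant wells STRF6 was at 0.24 (adjusted p = 0.55). In the TruSeq pools STRF6 rose by 0.23 against DMSO (edgeR, adjusted p = 0.0022). There it was at 0.12 against gemcitabine (adjusted p = 0.33) and 0.01 against aprepitant (adjusted p = 0.995), and neither passed. STRF6, OK/SW-cl.16 and 1 are among the 6 most abundant symbols of the plate. Together these 6 held 39.7% to 52.1% of the counts of an albendazole well (median 43.8%) and 37.5% to 42.7% of a DMSO well (median 38.8%), a difference of 5.45 percentage points between the means (two-sided permutation test, adjusted p = 0.00036 over 6 comparisons). Their share was also higher by 4.07 points than with aprepitant (adjusted p = 0.0065) and by 4.17 points than with gemcitabine (adjusted p = 0.00066). AF079515 rose by 0.34 (adjusted p = 0.048) and lost its call under 5 alternatives, among them the replicate block (adjusted p = 0.076) and the removal of the DMSO well of low depth (adjusted p = 0.11). Without the 6 most abundant symbols NEAT1 was the only gene called in PLATE-Seq (log2 fold change 0.48, adjusted p = 0.020).

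**Figure D3:**
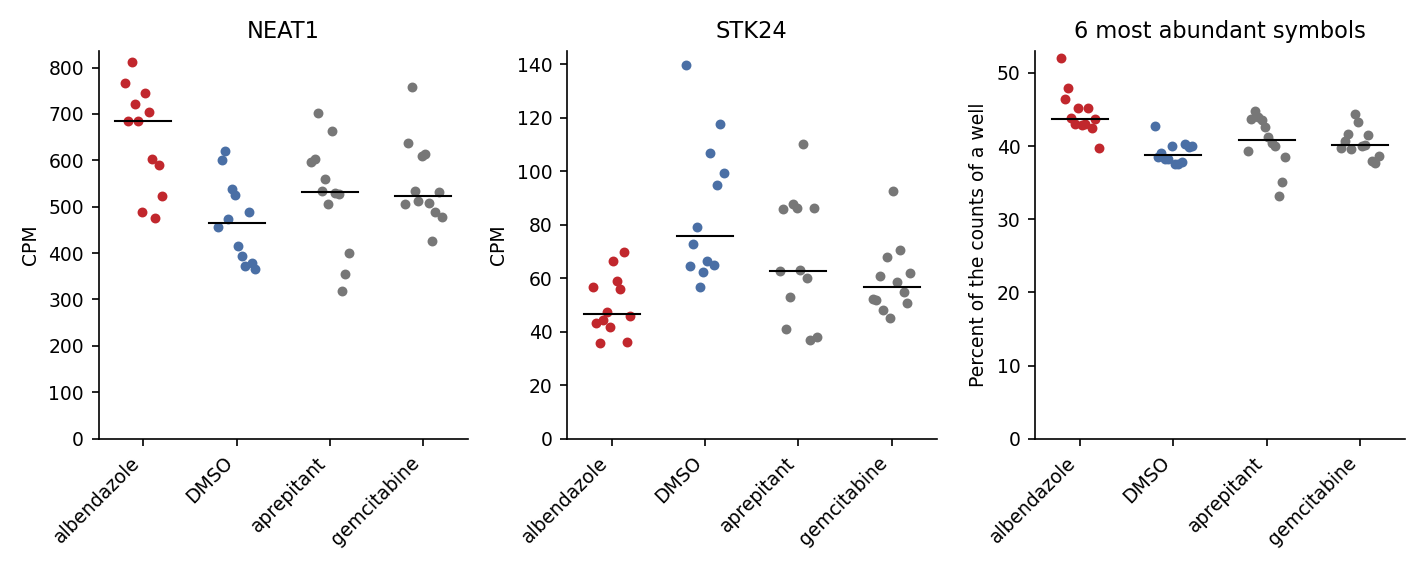
NEAT1 (left) and STK24 (middle) in CPM and the percentage of counts on the 6 most abundant symbols (right) in the 12 PLATE-Seq wells of albendazole, DMSO, aprepitant and gemcitabine. Points are wells and lines are medians. The median of NEAT1 was 685 CPM with albendazole and 465 CPM with DMSO, and the aprepitant and gemcitabine medians, 532 and 523 CPM, lie between them.

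In the TruSeq pools 1692 of 14970 genes, or 11.3%, were called against DMSO, of which 1048 rose and 644 fell. Their changes were small, with a median of 0.23 on the log2 scale regardless of sign. The genes that rose were GC-rich and those that fell were GC-poor and long. The median GC content of the annotated transcripts was 62.1% for the genes that rose, 40.0% for those that fell and 49.2% for all genes tested, and the median transcript length was 2902, 4604 and 3252 bases. With the lane label as a term, 2 genes were called (0.0134%), TUBA4A and TUBB, and both fell. The lane effect in this fit was estimated from the 2 aprepitant pools alone. The SE was larger with the term, for TUBB 0.066 instead of 0.039, which makes it harder for a gene to pass. The estimates of other genes also shrank, by differing amounts. On the log2 scale PITX1 moved from 0.42 to 0.22, TROAP from 0.26 to 0.08 and LENG8 from 0.40 to 0.34. With offsets for GC content and length, 550 genes were called (3.67%), 236 higher (1.58%) and 314 lower (2.10%). Without the first albendazole pool 50 genes were called, without the second 957 and without the first DMSO pool 107, so that the count rests on these pools.

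The level of GC-rich relative to GC-poor genes was computed for each pool, as the median of the 2270 genes with at least 60% GC minus that of the 2157 genes with at most 40%, each gene being centred on its mean log2 level over the 16 pools. It was 0.13 and 0.03 in the albendazole pools and −0.29 and −0.13 in the DMSO pools. The aprepitant pool on L001 was at 0.10 and that on L002 at −0.08. Of the 9 pools labelled L001, 8 were above 0, and of the 7 labelled L002, 6 were below 0. The exceptions were a crizotinib pool at −0.08 and a bortezomib pool at 0.03. The part of the lane and of GC content in the individual calls was not tested.

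**Figure D4:**
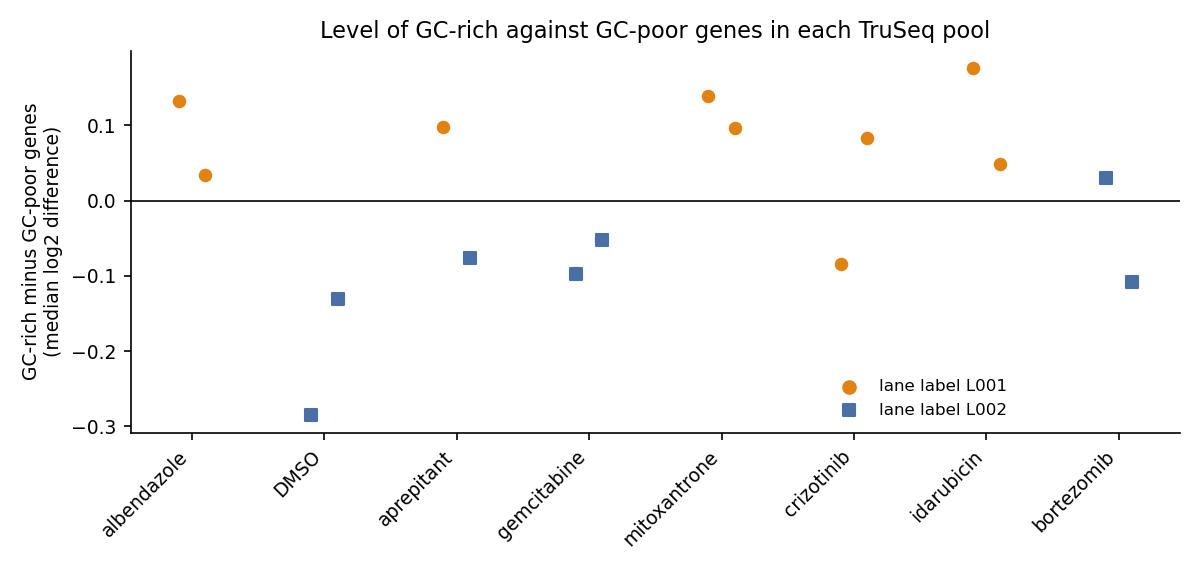
Median log2 level of GC-rich genes minus that of GC-poor genes in each of the 16 TruSeq pools, after centring each gene on its mean over the pools, with circles for lane label L001 and squares for L002. The DMSO pools are the lowest, at −0.29 and −0.13, and the aprepitant pools, on different lanes, are at 0.10 and −0.08.

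The functional groups of genes were counted against the 7.00% of genes that rose and the 4.30% that fell against DMSO. With the GC and length offsets the shares of all genes were 1.58% and 2.10%. Of 24 immediate early genes, which respond to stimuli without new protein synthesis, 9 rose and 1 fell. JUN had 54.0 and 56.5 CPM with albendazole and 37.3 and 46.1 CPM with DMSO (log2 fold change 0.41, adjusted p = 0.0015), and FOS, ATF3 and IER3 rose by 0.47, 0.37 and 0.34. With the GC and length offsets 4 members rose, among them FOS (0.44, adjusted p = 0.042), ATF3 (0.37, adjusted p = 0.025) and IER3 (0.22, adjusted p = 0.00063), and 1 fell, the MAP kinase phosphatase DUSP5 (−0.43, adjusted p = 0.0019). Against aprepitant and gemcitabine 0 of the 24 were called by edgeR, while 5 and 2 differed at an unadjusted p under 0.05, where 5.58% and 11.4% of all genes did, and JUN was at 0.22 (adjusted p = 0.79) and 0.11 (adjusted p = 0.57).

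Of 13 targets of the serum response factor and its coactivator MRTF, which senses free actin, 6 rose and none fell. The cytoskeletal genes ACTB, FLNA and ZYX rose by 0.21, 0.23 and 0.23 on the log2 scale (adjusted p = 0.0049, 0.0057 and 0.0056). ACTB had 3339 and 3189 CPM with albendazole and 2678 and 2975 CPM with DMSO, but the gemcitabine pools, at 3250 and 3188 CPM, were at the level of albendazole. With the offsets ACTB was at 0.14 (adjusted p = 0.0041) and ACTG1 at 0.11 (adjusted p = 0.034), the 2 members still called, and ZYX was at 0.01. In the wells, where the 13 genes gave 0 at an unadjusted p under 0.05, ZYX was at −0.08 against DMSO.

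Of 15 heat shock and NRF2 genes, 6 fell and 1 rose. The members that fell were the antioxidant genes GCLM, SRXN1 and TXNRD1 and the chaperone genes HSP90AA1, HSPA8 and HSPH1. GCLM, which encodes the modifier subunit of the enzyme for glutathione synthesis, had 199 and 204 CPM with albendazole and 256 and 241 CPM with DMSO (log2 fold change −0.30, adjusted p = 0.00042). The aprepitant pools had 199 and 203 CPM of GCLM, and GCLM differed from them by 0.00 on the log2 scale (SE 0.050, adjusted p = 0.999). AKR1B10, an aldo-keto reductase that is not on this list, had 480 and 492 CPM with albendazole and 590 and 547 CPM with DMSO (−0.23, adjusted p = 0.00066). With the GC and length offsets 5 of the 15 genes fell and none rose.

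Mitotic genes are of interest beside a drug that acts on the spindle, and 5 of 40 rose and 1 fell. PLK1, AURKB, UBE2C, PSRC1 and HJURP rose by 0.14 to 0.22 and CCNB2 fell by 0.14 on the log2 scale. None of the 40 reached an unadjusted p under 0.05 in the wells, and their median was 0.005 there. Of 30 G1/S and replication genes 2 rose, CDT1 and MCM5. Of 18 NF-κB targets 4 rose and none fell, and with the offsets none was called by edgeR. The p53 targets gave 1 higher and 2 lower of 18, the BCL2 family 1 higher of 15, the ATF4 stress genes 1 higher of 20, the sterol synthesis genes 2 higher and 1 lower of 18 and the YAP targets 1 lower of 11. The 17 nuclear and host long non-coding RNAs, NEAT1 among them, gave 0 by edgeR in the pools, with 4 at an unadjusted p under 0.05, where 27.8% of all genes were. Of the lists of markers, 1 BT20 marker of 10 rose (KRT7, 0.16) and 1 fell (EPCAM, −0.14), and neither of the 2 hormone receptors tested, ESR1 and ERBB2, was called. Of the markers of other cell types, COL1A1 rose (32.6 and 26.5 CPM with albendazole, 19.8 and 20.5 CPM with DMSO, adjusted p = 0.00079), while COL1A2 was at 0.

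Of the 10 genes of the aryl hydrocarbon receptor, 0 rose and 2 fell against DMSO, NQO1 (−0.13, adjusted p = 0.031) and UGT1A6 (−0.17, adjusted p = 0.016). With the GC and length offsets neither passed (adjusted p = 0.29 and 0.065). CYP1A1 (chr15:75011883-75017877) had 141 and 129 CPM with albendazole and 120 and 124 CPM with DMSO, and the log2 fold change of 0.15 (SE 0.051) did not pass the test (adjusted p = 0.056). With the lane label as a term it was 0.03 (SE 0.087). The aprepitant pools had 102 and 94.4 CPM, and CYP1A1 was higher with albendazole than with aprepitant by 36.9% (log2 fold change 0.45, SE 0.052, adjusted p = 4.3e-06). CYP1B1, a related enzyme (chr2:38294116-38337044), had 1101 and 1051 CPM with albendazole, 1122 and 1102 CPM with DMSO and 898 and 893 CPM with aprepitant. It was higher with albendazole than with aprepitant (0.27, SE 0.039, adjusted p = 0.00033) but not against DMSO (−0.05, SE 0.038, adjusted p = 0.45). CYP1A1 and CYP1B1 were lower with aprepitant than with DMSO, by 0.31 each on the log2 scale (adjusted p = 0.0046 and 4.4e-05). In that comparison 272 genes or 1.82% were called, 182 higher (1.22%) and 90 lower (0.601%). In the albendazole wells CYP1A1 was at 0.53 against DMSO (adjusted p = 0.89) and 0.52 against aprepitant (adjusted p = 0.998). CYP1B1 was at −0.01 (adjusted p = 0.99) and 0.37 (adjusted p = 0.11) there, and none of these passed the test.

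**Figure D5:**
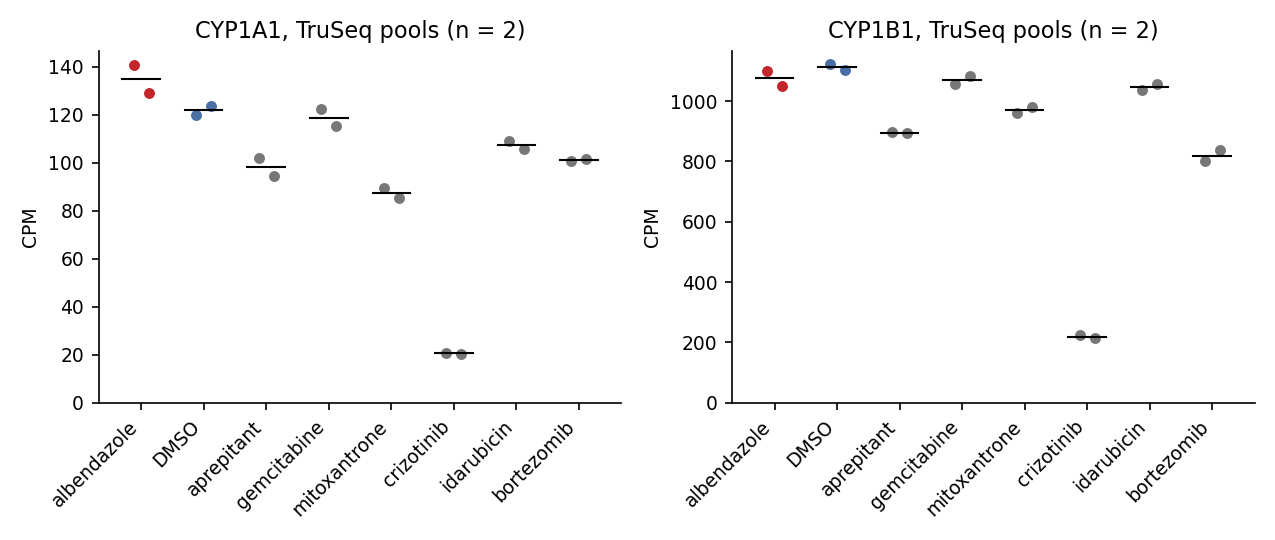
Levels of CYP1A1 (left) and CYP1B1 (right) in CPM in the 2 TruSeq pools of each condition, with albendazole in red and DMSO in blue and lines for the means. The albendazole pools have 141 and 129 CPM of CYP1A1 and the aprepitant pools 102 and 94.4 CPM, and the crizotinib pools, at 20.8 and 20.3 CPM, are the lowest.

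With the 4 tubulin genes, CYP1A1 and CYP1B1 were all that was called against aprepitant, 6 of 14970 genes or 0.0401%, with 2 higher (0.0134%). Against the aprepitant pool of the same lane label alone, 7 of 15285 genes or 0.0458% were called, the same 6 and the RNA component RMRP (−1.49, adjusted p = 0.027), with 2 higher (0.0131%) and 5 lower (0.0327%). Against gemcitabine 15 genes, or 0.100%, were called: the 4 tubulin genes fell and 11 rose (0.0735%). Among those that rose were LENG8 (251 and 241 CPM with albendazole, 203 and 199 CPM with gemcitabine, adjusted p = 0.0034), C21orf58, ABCA7, FER1L4, SYT8 and TROAP, which encodes a cytoplasmic protein needed for spindle assembly. With the lane label as a term only TUBA4A (−0.61, adjusted p = 0.00024) and TUBB (−0.37, adjusted p = 0.028) were called against gemcitabine. The count of 15 was 3 without the first albendazole pool, 2 without the first gemcitabine pool and 3 without the second. Gemcitabine against DMSO, both on L002, gave 0 called genes by edgeR and 1143 at an unadjusted p under 0.05.

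Of the 1692 genes called against DMSO in TruSeq, 992 were tested in PLATE-Seq, and 587 of these had the same sign. Over all 5981 genes tested in both, 3111 had the same sign, and the wells and pools hold the same cells. The same sign together with an unadjusted p under 0.05 in PLATE-Seq was seen in 47 genes, 28 higher and 19 lower, where 2.82% and 2.57% of all genes tested in PLATE-Seq were higher and lower at such a p, and the opposite sign with such a p in 18. The 47 genes all had at least 10 CPM. Their largest falls in TruSeq were TUBA4A and TUBB, followed by FBXO32, AKR1B10, AQR, ANKRD17, TM9SF3, PPT1, BCLAF1 and STRAP, at −0.24 to −0.18. Their largest rises were SYT8, RGL3, PITX1, CRTC1, PDLIM7, GIGYF1, the symbol 1, SBNO2, FAM3A and TROAP, at 0.52 to 0.26. With the GC and length offsets 6 of these 10 rises and 7 of the 10 falls were still called, and the values moved to 0.23 for SYT8, 0.24 for RGL3, 0.22 for CRTC1, 0.15 for PDLIM7, 0.14 for GIGYF1 and 0.12 for TROAP. PITX1, SBNO2 and FAM3A lost their calls, at 0.09, 0.01 and 0.05, as did the symbol 1 at 0.29. Among the falls AQR, TM9SF3 and BCLAF1 lost theirs, at −0.11, −0.06 and −0.06. None of the 10 rises and 2 of the 10 falls, TUBA4A and TUBB, were called with the lane label as a term. All 10 rises were smaller with this term, between 0.39 for SYT8 and 0.02 for FAM3A. The falls other than TUBA4A and TUBB were smaller too, between −0.19 for AKR1B10 and −0.05 for ANKRD17. RGL3, a Ral guanine nucleotide exchange factor, had 48.7 and 48.6 CPM in the albendazole pools and 38.1 and 34.3 CPM in the DMSO pools (0.42, adjusted p = 0.00013). In the wells it ranged from 36.2 to 91.9 CPM with albendazole and from 24.2 to 48.5 CPM with DMSO, and 9 albendazole wells were above the highest DMSO well (0.71, adjusted p = 0.26). CRTC1, a coactivator of CREB, had 37.7 and 35.3 CPM against 26.7 and 28.4 CPM in the pools (0.41, adjusted p = 0.0047), and a log2 fold change of 1.21 in the wells (SE 0.29, adjusted p = 0.060).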

How the data were processed

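BT20 cells were profiled in 96 PLATE-Seq wells and 16 TruSeq pools. The authors deposited raw counts per gene symbol without normalization. Per the study's methods, PLATE-Seq reads were aligned with BWA to known genes of hg19 and uniquely mapped reads on the sense strand were counted; for the TruSeq reads, alignment, counting and strand are not given in the sources used here. In both tables, 92 spike-in sequences were left out and 28430 symbols remained.

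Counts were tested with edgeR 4.0.16 (R 4.3.3; quasi-likelihood, TMM, filterByExpr) and Benjamini-Hochberg adjustment over all genes tested, with genes called at an adjusted p under 0.05. PLATE-Seq fits held the 24 wells compared, the TruSeq fit all 16 pools. The SE is that of the log2 fold change, and CPM use TMM library sizes. DESeq2 1.42.0, other filters, RLE normalization, the lane label, a block of runs of 8 wells and the removal of pools or wells were alternatives. GC and length offsets, and the comparisons with 4 further drugs, were added after seeing the data. Of the genes tested, 90.5% had a GC content and length from GENCODE 44 on GRCh37. Over 8806 genes, wells of a run showed no shared deviation (0 of 12 correlations over 0.1, mean 0.0082). This correlation does not exclude a shared deviation of single genes. NEAT1 had 684.7 to 811.6 CPM in the albendazole wells of runs 1 to 3 and 475.6 to 590.5 CPM in runs 10 to 12. The DMSO wells had 456.3 to 620.1 CPM and 366.8 to 488.5 CPM in the same runs. The SE of NEAT1 against DMSO was 0.088 with the block and 0.095 without it. Procedures were tested on simulated counts. Permutation tests used 100000 resamples in scipy 1.17.1.

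Members and the 21 gene lists were chosen with earlier results of these data known. Results for a few items on these lists are not reported here. Named genes were all genes called in PLATE-Seq against DMSO, the 10 largest rises and falls called in TruSeq with at least 10 CPM and the same sign at an unadjusted p under 0.05 in PLATE-Seq, all tubulins, up to 4 called members of other lists with the largest TruSeq change, and genes called in direct comparisons. A few members outside this rule were named after their values were seen.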

Additional observations from a re-analysis of the deposited data

How the results depend on the processing

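In TruSeq, TUBB and TUBA4A fell under all 11 alternatives against DMSO, all 9 against aprepitant and all 8 against gemcitabine. The largest adjusted p, 0.028, was that of TUBB against gemcitabine with the lane label as a term. Against aprepitant, leaving out the second aprepitant pool and keeping only the aprepitant pool of the albendazole lane label were the same fit. TUBA1C and TUBA1B lost their calls against DMSO and gemcitabine with the lane label as a term, but not against aprepitant (adjusted p = 0.013 and 0.021), and in the direct comparisons also without single pools. The 4 tubulin calls against DMSO became 2 with the lane label as a term and 6 with GC and length offsets. The 1692 genes called against DMSO became 2 with the lane label, 550 with GC and length offsets and 50 to 1665 when each pool was left out. The 15 called against gemcitabine became 2 with the lane label, 47 with the offsets and 2 to 10 without each pool, and the 6 against aprepitant became 11 with the offsets and 4 to 7 without each pool; when 1 pool was left in a group, it was assumed to vary like the others. CYP1B1 lost its call against aprepitant without the first albendazole pool (adjusted p = 0.12).

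In PLATE-Seq, the 6 genes called against DMSO became 12 with DESeq2, 14 without a filter, 10 with all 96 wells in 1 fit and 1 without the 6 most abundant symbols. The single gene against aprepitant became 0 with DESeq2 (571 at an unadjusted p under 0.05), 0 with RLE normalization (297) and 3 without a filter, and that against gemcitabine 9 with DESeq2, 7 without a filter and 4 with the replicate block. With this block 8 genes were called against DMSO. No paired analysis was possible for the TruSeq pools because the labels do not say which wells each pool holds. Depth limits the wells: 5990 genes passed the filter over 24 wells, and 14970 that over 16 pools.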

Other observations

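NEAT1 was lower in albendazole wells than in bortezomib wells (914 to 1865 CPM, median 1287 CPM) and crizotinib wells (699 to 1167 CPM, median 997 CPM), and the albendazole median of 685 CPM was close to that of idarubicin, 645 CPM (log2 difference 0.07, adjusted p = 0.87). In the TruSeq pools the comparison of albendazole with crizotinib had the other sign: NEAT1 had 136 and 131 CPM with albendazole and 86.3 and 92.1 CPM with crizotinib (log2 fold change 0.58, adjusted p = 1.3e-09), against −0.63 in PLATE-Seq (adjusted p = 1.7e-07). The cause was not tested.

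TUBA1C, which did not pass the test against DMSO in the wells, was lower with albendazole than with crizotinib in PLATE-Seq (512 to 1070 CPM, median 881 CPM, against 966 to 1474 CPM, median 1174 CPM; log2 fold change −0.40, adjusted p = 0.00063) and than with bortezomib (median 1211 CPM, −0.36, adjusted p = 0.031). It did not pass against aprepitant (−0.16), gemcitabine (−0.18), mitoxantrone (−0.16) or idarubicin (−0.08), with adjusted p between 0.68 and 0.998.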
